A study of Nematostella vectensis with 96 samples.

Results

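The genes described here are the 100 genes of the sea anemone Nematostella vectensis whose transcript level differed most between individual animals kept in the same light and sampled at the same hour. They were chosen from the counts themselves. Of 23927 gene models, 2285 had a mean count of at least 20 over the libraries used, and level was taken as log2(CPM + 5), where CPM is the count scaled to a library total of 1000000. The mean level of each light and time group was subtracted, and the 100 genes with the largest standard deviation (SD) of what was left, the residual SD, were kept, with 4 genes set aside by the choice. Among those 4, histone h1 (NVE4301, residual SD 2.38) and histone H2A (NVE11853, 0.933) were in the 2285. Residual SDs are therefore given as a description with no test.

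Each library came from 1 adult, laboratory-bred animal, whole, and replicates were not pooled. Animals lived for a month in red, green or blue light on a 12 h light and 12 h dark cycle, or in constant darkness (DD), were starved before sampling, and were taken at ZT2, 6, 10, 14, 18 and 22, where ZT counts hours from lights-on. Each light and time group had replicates A to D, 96 libraries in all. The labels give neither sex, genotype nor what a replicate letter shares across times, and all groups came from the same laboratory culture.

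In total 93 libraries were used, 23 in red light, 24 in green light, 24 in blue light and 22 in DD, with 104048 to 706046 counts and a median of 344755. The libraries red ZT6 C (1455 counts), DD ZT6 D (25683) and DD ZT22 C (289) were left out for their low totals. A floor of 3 counts corresponded to 4.25 to 28.8 CPM depending on the library, so values below a few CPM were not separable from 0. Replicates of a group differed by more than counting noise in every pair compared (lowest chi-square per degree of freedom 3.56). In 3 shallow libraries, blue ZT10 D (104048 counts), DD ZT2 A (138366) and blue ZT14 B (111676), 66 or more of the other 2185 genes lay more than 2 log2 units from their group mean, against a median of 4 over all libraries. Leaving out these 3 libraries together, 97 of the 100 members were chosen again.

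Nematostella vectensis is an estuarine cnidarian with separate sexes that can also divide asexually, and its body is built from an outer and an inner tissue layer that carry stinging cells, a nerve net, muscle and, in adults, gonad tissue. A library of a whole animal averages over all of these, so in such bulk samples fewer cells of a type and less RNA per cell cannot be told apart. Spread among animals of a group can only be read because each animal was sequenced on its own.

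The members' residual SD was 1.12 to 2.76 (median 1.54), against 0.181 to 2.38 (median 0.400) in the other 2185 genes, where the upper end is the histone h1 gene set aside. It exceeded 2 in 19 members and 1.5 in 56. The spread that counting alone would give was a median SD of 0.272 for the members and 0.259 for the other genes. Mean levels of the members were 51.5 CPM (NVE448, carbamoylphosphate synthase large subunit) to 2762 CPM (NVE1808, no annotation), with a median of 132.8 CPM, against 50.2 to 32136 CPM and a median of 106.3 CPM in the other genes, so the most abundant genes were not among the members. The last members inside the choice were NVE3540 (1.16), NVE1253 (1.14) and NVE18284 (1.12), and the first genes outside were NVE17909 (1.117), NVE10584 (1.117) and NVE14789 (1.116), so the limit fell in a continuous range.

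Zero counts were frequent among the members. At least 1 library had none of the gene's transcripts for 77 of the 100 members and for 148 of the other 2185 genes (6.77%). Under 5 CPM in at least 5 animals together with over 100 CPM in at least 5 animals was seen for 72 members and 9 other genes. The choice by spread favours genes near 0 in some animals and high in others, so these contrasts with other genes are built in. Residual level bore little relation to depth, with a median absolute correlation with log depth of 0.130 over the 93 libraries, against 0.313 in the other genes.

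In 13 members the animals fell into separate low and high levels with an empty interval of at least 2 log2 units between them, a pattern found in 1 other gene. A gap of at least 1 log2 unit was found in 41 members and 3 other genes. The choice by spread also favours genes with such gaps, so the contrast with other genes is no finding. Of these 13, NVE19300 is annotated as an uncharacterized protein and the others described below carry no annotation in the sources used here.

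NVE3331 had the second largest residual SD (2.62). It lay between 0 and 3.95 CPM in 36 animals and at 236 CPM or more in the other 57, with no animal between. The low level occurred in every light, in 10 of 23 animals in red light, 10 of 24 in green light, 8 of 24 in blue light and 8 of 22 in DD. Its medians were 310, 268, 295 and 321 CPM in red, green and blue light and DD, so the lights overlapped throughout.

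NVE342 had the largest residual SD of all, 2.76. Its lowest, median and highest levels were 0, 4.67 and 1071 CPM in red light, 0, 190.3 and 837 CPM in green light, 0, 283 and 1229 CPM in blue light, and 0, 55.04 and 1196 CPM in DD. Low animals, up to 7.52 CPM, numbered 46 of 93, namely 13 in red light and 11 each in green light, blue light and DD, and the remaining animals had 105.2 CPM or more. The differing medians thus reflect how many animals stood on each side of the gap, which was close to an even split in each light. NVE272 followed NVE342 across animals (r = 0.90 over 93 libraries).

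NVE19300 was the reverse, mostly absent: 63 animals had up to 3.71 CPM and 30 had 98.9 CPM or more. NVE4465 was mostly present: 21 animals had up to 4.27 CPM and the rest 53.7 CPM or more. NVE13292 (10 animals up to 3.78 CPM, the rest at 60.7 CPM or more), NVE7823 (7 animals up to 5.65 CPM, the rest at 86.5 CPM or more) and NVE4897 (6 animals up to 1.60 CPM, the rest at 25.8 CPM or more) were absent in fewer animals still. In NVE6609 15 animals had up to 42.6 CPM, 11 of them under 5 CPM, and the rest had 322 CPM or more. The others with such a gap were NVE7186, NVE16052 and NVE18617, whose low levels held 25, 54 and 25 animals.

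**Figure D1:**
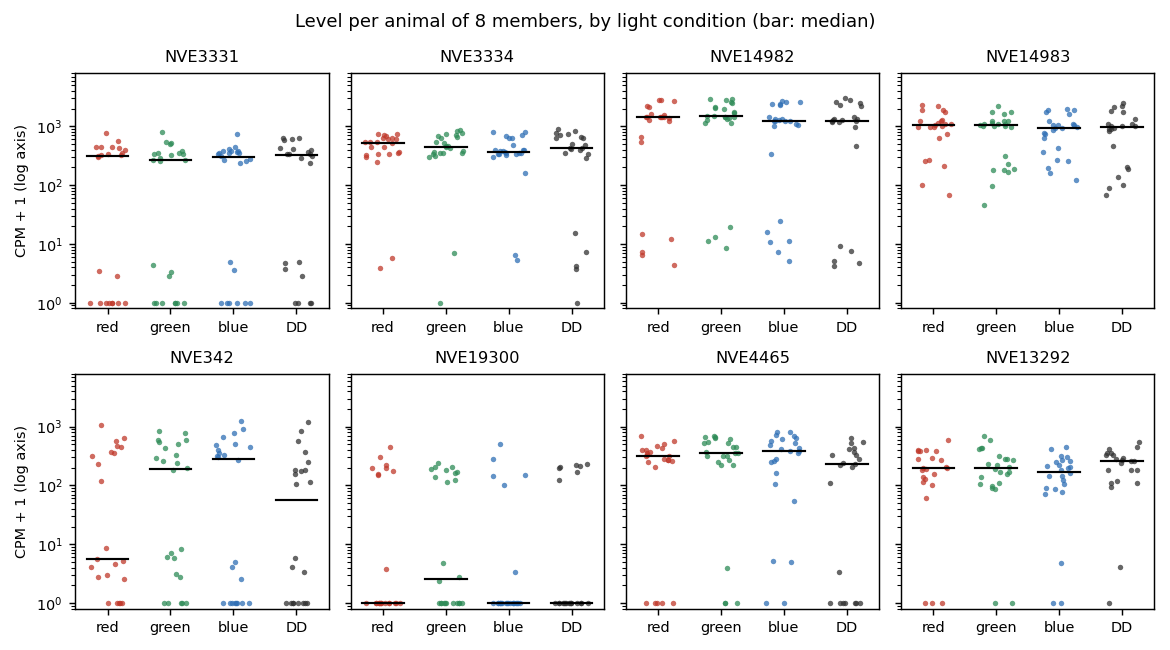
Level of 8 members in single animals, as CPM + 1 on a log axis, by light (red, green, blue, DD), with a bar at each median and 1 point per animal. NVE3331, NVE342, NVE19300 and NVE4465 leave an empty band between low and high animals in each light, and animals of every light stand on both sides of it.

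The lower end of NVE3331 was filled by a neighbour in the gene numbering, NVE3334 (residual SD 1.70). NVE3334 had 11 animals up to 14.5 CPM and the rest at 158 CPM or more, and the residuals of both genes were negatively related (r = -0.59). Their summed CPM lay between 331 and 1039 (median 683) in all 93 animals, and the residual SD of the sum was 0.261, below the median of 0.400 of genes outside the list. NVE3331 gave at most 10% of the sum in 36 animals, 40.8 to 60% (median 47.3%) in 46 animals, and at least 90% in 11 animals. The middle class was thus centred close to equal parts, and no animal lay between the classes. By light, the animals with a low, middle and high share numbered 10, 11 and 2 in red light, 10, 12 and 2 in green light, 8, 14 and 2 in blue light, and 8, 9 and 5 in DD.

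NVE14982 (residual SD 2.33) and NVE14983 (1.19), with consecutive numbers, also had a steadier sum. NVE14982 had up to 23.8 CPM in 20 animals and 340 CPM or more in the others, while NVE14983 had 45.8 CPM or more everywhere, and their residuals gave r = -0.54. The sum was 634 to 3102 CPM (median 2353) with a residual SD of 0.329. NVE14982 supplied at most 10% of the sum in 20 animals, 46.6 to 89.3% (median 56.02%) in 52, and at least 90% in 21. Only the low class was separate here, since the middle shares reached up to the high ones. The low class held 5 of 23 animals in red light, 4 of 24 in green light, 6 of 24 in blue light and 5 of 22 in DD.

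Among 223450 pairs formed by a member and any of the 2285 genes, the sum had a residual SD under 0.400 and under 0.5 times that of either gene in 9 pairs, chosen by this very property. Both partners were members only in the 2 pairs above, which were also the only ones with gene numbers within 10 of each other. In the remaining 7, a member was paired with a gene of smaller spread far off in the numbering, as in NVE9664 with NVE11721 (sum SD 0.280), NVE18382 with NVE7039 (0.309), NVE4464 with NVE21133 (0.312) and NVE6609 with NVE5239 (0.360). Gene numbers are those of the transcript models, and the positions and sequences of the models were not used here. Reads were counted by the authors only where they mapped to a single gene, so if any of these partners are near-identical copies or forms of 1 locus, the division of reads between them is uncertain.

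**Figure D2:**
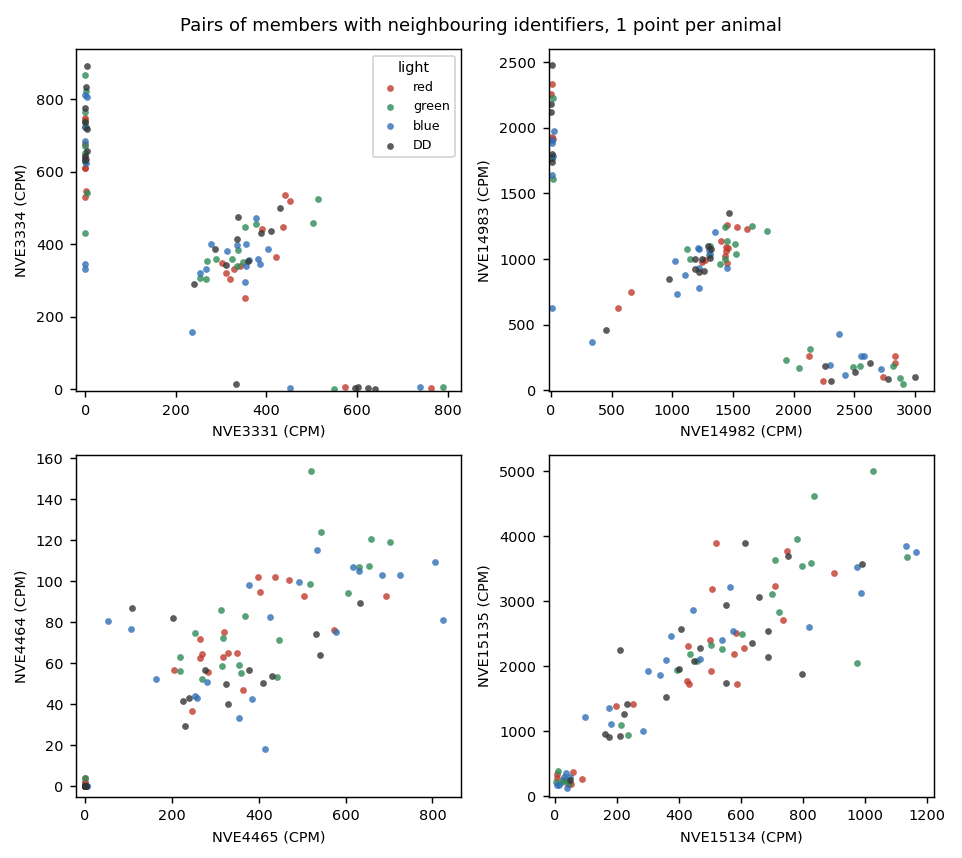
Level of 1 member against another in each of the 93 animals, as CPM on linear axes, coloured by light. In NVE3331 with NVE3334 and NVE14982 with NVE14983 no animal is low in both genes, and many animals have both. NVE4465 with NVE4464 and NVE15134 with NVE15135 are high and low in the same animals.

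As a whole the members did not vary together. Over the 4950 pairs of members the median correlation of residuals was -0.00078, against 0.107 for all pairs of the 2285 genes, and 1.92% of pairs had an absolute r above 0.5, against 3.50%. These correlations are over 93 libraries, which each gene shares along with its depth, and are given as a description. Of the pairs of members, 74 had r above 0.5, most of them within the sets described below. The 12 pairs of members with numbers within 10 had a median r of 0.525, against 0.138 over all 2330 such pairs of the 2285 genes, and gave 6 of those 74. Joining genes at an average r of 0.5 left 50 members alone and put 50 into 18 groups, 14 of which held a pair.

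Among the groups of 2, the closest moved almost as 1 gene. NVE4465 and NVE4464 correlated at r = 0.95 and were both under 5 CPM in the same 21 animals, with no animal low in only 1 of them. NVE15134 and NVE15135 (r = 0.94), NVE11103 and NVE3540 (0.93) and NVE10067 and NVE18608 (0.91) came next. NVE15134 and NVE15135 were in turn low where NVE23259 was high (r = -0.64 and -0.69). The group of 3, NVE14792, NVE14796 and NVE14791 (r = 0.60 to 0.84), also had close numbers.

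**Figure D3:**
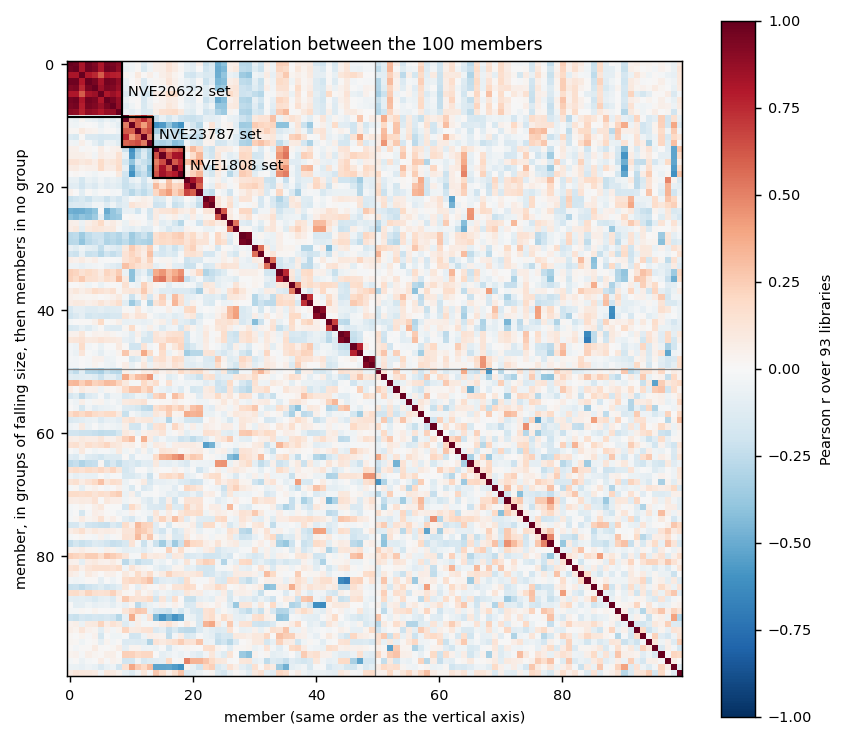
Correlation of residual level over 93 animals between each pair of the 100 members, ordered by clustering, from negative to positive on the colour scale. Boxes mark the sets of 9, 5 and 5 genes named for NVE20622, NVE23787 and NVE1808. Over all pairs the median r was -0.00078, and 1.92% had an absolute r above 0.5. Strong pairs also lie outside the boxes, such as NVE4465 with NVE4464 (r = 0.95) and NVE23259 with NVE15135 (-0.69).

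The largest set held 9 genes without annotation: NVE20622, NVE12125, NVE2701, NVE9958, NVE2012, NVE521, NVE6580, NVE5911 and NVE19902. Their pairwise r was 0.605 to 0.976 (median 0.880), and 4 of them, NVE20622, NVE12125, NVE2701 and NVE9958, were among the 10 members with the largest residual SD. All 9 lay above their group means in 24 animals and all 9 below in 26. The mean level of the set ran from 2.45 to 10.01 on the log2(CPM + 5) scale, so its lowest animals lay near 0 CPM.

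NVE20622 (residual SD 2.51) had lowest, median and highest levels of 0, 5.02 and 2085 CPM in red light, 0, 9.26 and 2228 CPM in green light, 0, 7.68 and 1959 CPM in blue light, and 0, 7.61 and 1503 CPM in DD. It passed 100 CPM in 5 of 23 animals in red light, 11 of 24 in green light, 7 of 24 in blue light and 7 of 22 in DD, and 21 animals had no count. NVE12125 (2.48) was at 0 in 39 animals and reached 1787 CPM, NVE2701 (2.31) was at 0 in 8 and reached 1938 CPM, and NVE9958 (2.29) was at 0 in 24 and reached 1386 CPM. NVE2701 passed 100 CPM in more animals, 10 of 23 in red light, 14 of 24 in green light, 10 of 24 in blue light and 12 of 22 in DD. The animal highest in 1 gene of the set was often highest in others: green ZT22 B was the maximum for NVE20622, NVE2701, NVE2012 and NVE19902, and blue ZT6 D for NVE12125, NVE9958, NVE521 and NVE6580.

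The animals farthest above their group mean for the set were green ZT22 B (5.14 log2 units), blue ZT6 D (4.91), green ZT18 B (4.38), red ZT10 D (4.26) and DD ZT10 D (4.22). They came from all 4 conditions and from 4 of the 6 hours. This ranking is by distance from the group mean, so it passes over groups whose animals were all high. In green ZT6 the mean level of the set was 7.16 to 8.32 in all 4 animals. In blue ZT2 all animals had 2.96 to 3.38 and in red ZT6 3.42 to 3.92. These groups were picked after their values were seen. Outside the members, 72 of the other 2185 genes followed the set mean with r above 0.5, and the named ones nearest to it were a dynein light chain (NVE15538, r = 0.81), a subunit of the microtubule motors that also move cilia and flagella, an NADH ubiquinone oxidoreductase of the respiratory chain (NVE21391, 0.70), a cilia and flagellin-associated protein (NVE6627, 0.70) and an ATP synthase subunit (NVE21177, 0.66). Histone h1 (NVE4301), a linker histone that packs chromatin and 1 of the 4 genes set aside, ran the other way (r = -0.54). The set mean correlated with log depth at r = 0.23, and its part in the pattern was not tested. Sex and gonad state are not in the labels.

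The second set joined NVE23787, annotated as a dehydrin-like protein after a family best known from drought-stressed plants, NVE1644 (no annotation), NVE15026 (uncharacterized protein), NVE24607, a low density lipoprotein receptor-related protein of a family of endocytic receptors, and NVE2195, a galaxin precursor, named for a protein of the coral skeleton's organic matrix. Their pairwise r was 0.417 to 0.754 (median 0.591). All 5 were above their group means in 18 animals and below in 19. The named non-members that followed the set mean most closely were immunoglobulin superfamily genes (NVE21313, r = 0.85, and NVE4723, 0.81), complement component 2 (NVE18550, 0.83), a protease of the complement cascade, and neuronal pentraxin (NVE1236, 0.79), with 27 non-members above 0.5. The set mean had r = 0.063 with log depth. Annotated genes in these sources are ones that the study selected on these same animals, so names are not an even sample of the followers.

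The third set held NVE1808, NVE25706, NVE13257 and NVE2223, all without annotation, and NVE448, the large subunit of carbamoylphosphate synthase, which makes the precursor of arginine and pyrimidine synthesis. Pairwise r was 0.505 to 0.841 (median 0.648). NVE1808, the most abundant member, had lowest, median and highest levels of 307, 1542 and 7898 CPM in red light, 82.4, 2567 and 8135 CPM in green light, 32.6, 3406 and 8480 CPM in blue light, and 133.3, 1940.4 and 6353 CPM in DD, so it was never absent. Non-members close to the set mean were NVE20507 (r = 0.88), NVE11971 (0.87), l-asparaginase (NVE2618, 0.86), which splits asparagine into aspartate and ammonia, and tubulin (NVE24199, 0.72). A pyridoxal-phosphate dependent enzyme (NVE2343, r = -0.78) and a macrophage receptor (NVE1252, -0.73) ran the other way. The set mean had r = 0.29 with log depth.

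The third set was lower in animals of 1 replicate letter in each light. Its mean residual had a median of -2.06 log2 units (range -2.58 to -1.39) in red A, against 0.72 to 0.86 for the medians of red B, C and D. In green light letter D was low, at a median of -2.41 (-2.88 to -1.68), and in DD letter A, at -1.37 (-1.54 to -1.01). In blue light letter D had a median of -1.30, with 1 exception at ZT6, where blue D was high (0.847) and blue B low (-1.25). The letter was thus A in red light and DD and D in green and blue light. The pattern was seen in the values and was given no test.

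NVE2223 shows it in counts. At ZT2, 6, 10, 14, 18 and 22 it had 51.9, 184, 80.1, 83.4, 56.8 and 24.9 CPM in red A, against 206 to 1106 CPM in the red animals of other letters. In green D it had 59.2, 95.7, 32.2, 113.1, 71.3 and 14.5 CPM, against 282 to 1079 CPM in the other green animals. Neither light had any overlap between the low letter and the others. In blue D it had 241, 668.5, 76.9, 200.5, 98.6 and 102.1 CPM, against 152 to 1057 CPM in the other blue animals, which overlapped. In DD A it had 181, 206, 295, 104.2, 82.6 and 89.3 CPM, against 176 to 766 CPM in the other DD animals, an overlap that rests on the lowest of DD C.

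**Figure D4:**
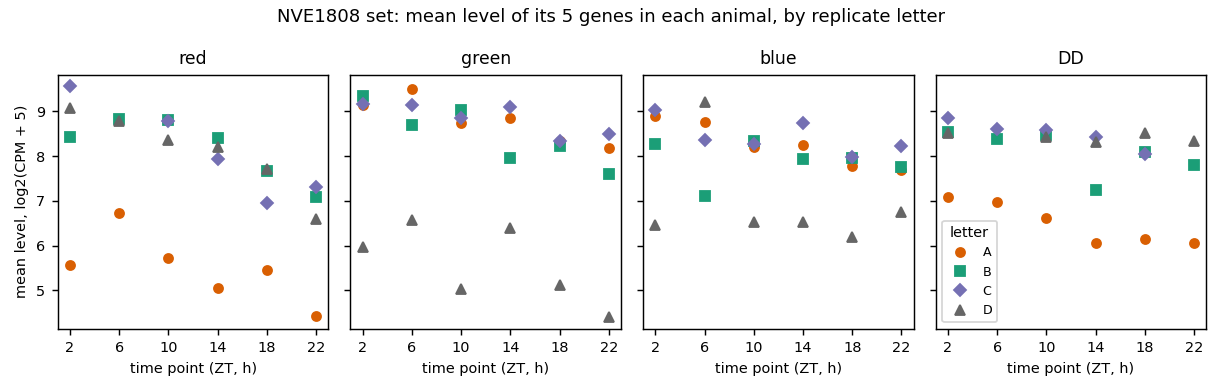
Mean level of the set of 5 genes with NVE1808, as log2(CPM + 5), against time of sampling (ZT, hours), with a panel per light and a marker per replicate letter. Red A, green D and DD A lie below the other letters of their light, and blue D does so except at ZT6, where blue B is low.

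Letter within light accounted for 83.4% of the residual sum of squares of NVE2223, 82.6% of NVE25706, 70.4% of NVE448, 65.4% of NVE13257 and 57.02% of NVE1808. Letters take up 12 of the 69 degrees of freedom left within groups, or 17.4%, and the median share was 17.9% over the members and 18.6% over the other genes. The share passed 40% in 9 members and in 43 other genes (1.97%). Most members therefore showed no more of a letter pattern than other genes did. The other 4 members past 40% were NVE1644 (55.4%), NVE1253 (47.8%, an uncharacterized protein), NVE2195 (40.9%) and NVE164 (40.2%).

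In green light NVE1644 and NVE1253 were high in the letter where the third set was low. NVE1253 had a median of 170 CPM (75.7 to 437) in green D, against medians of 6.3 to 26.4 CPM in green A to C. NVE1644 had a median of 172.4 CPM in green D, against 0 to 5.9 CPM in green A to C, and 130 CPM in blue D, against 1.7 to 22.2 CPM in blue A to C. NVE1644 and NVE1808 correlated at r = -0.62 over all animals, and the mean of the third set had r = -0.42 with that of the second. The first set was close to unrelated to either (r = -0.072 and 0.076).

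No small group of libraries carried the members. In each library 10 to 39 members (median 22) lay more than 2 log2 units from their group mean, with 10 in blue ZT18 B and 39 in blue ZT10 D, the shallowest library. Green ZT10 D and blue ZT10 B followed with 37 each. A library took 0.609 to 1.92% (median 1.02%) of the members' residual sum of squares, and the members together took 2.00 to 4.34% of its counts. The median was close to 22 in each light. A single library gave a median of 6.69% of a member's sum of squares, against 11.98% for the other genes. DD ZT6 A was the highest library for 6 members, green ZT22 B for 5, and every other library for 4 or fewer.

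Hemocytin (NVE12713), named for an insect blood protein with clotting and lectin domains, was the member most restricted to single animals. It had no count in 71 of the 93 libraries. It was at 2193 CPM in blue ZT2 B, 1066 in blue ZT14 B, 711 in blue ZT22 A, 656 in blue ZT6 A, 423 in blue ZT10 D and 413 in DD ZT18 A. Of these 6 animals 5 were in blue light, including 2 of the 3 shallow libraries, while the highest animals in red light, green light and DD had 70.9, 118.2 and 413 CPM. Its mean count of 21.04 passed the minimum of 20 through blue light, where it averaged 211 CPM, against 3.86 CPM in red light, 7.91 CPM in green light and 22.98 CPM in DD, so its place among the members rests on that light. With so many groups at 0 its light comparisons could not be fitted, and they give no test.

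Few members have an annotation. In the gene list that the study annotated, 15 of 100 members were present, 8 of them with a name, against 771 (35.3%) and 650 (29.7%) of the other 2185 genes. Of 32 ribosomal protein genes, 30 respiratory chain genes, 34 genes of muscle and cytoskeleton, 16 digestive hydrolases, 9 collagens, 7 chaperones and 5 venom and nematocyst genes among the 2285, none was a member. Classes were read from the annotation, which covered 786 of the 2285 genes and was selected by the study on these same animals. Only the 15 annotated members could fall in a class, so an empty class says little about the members. Median residual SD was 0.273 for the ribosomal proteins, 0.390 for the respiratory chain and 0.697 for the collagens. Histone H2A (NVE18284), a core histone of the nucleosome, was the only member among 3 histone genes, the other 2 having been set aside. Of the 7 genes listed as immune or lectin, the member was NVE10468, whose annotation reads rootlectin.

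The choice had subtracted the light and time means, though it kept a minimum mean count and a scale on which groups near 0 spread little, so level and choice are not wholly unrelated. The lights were compared with edgeR's quasi-likelihood test over 9597 genes, with Benjamini-Hochberg adjustment and a limit of 10% false discovery. The 3 comparisons share the DD libraries. In red light against DD 8 members passed, 2 higher and 6 lower, against 12.8% of all genes tested (6.66% higher, 6.18% lower). In green light 7 passed, 0 higher and 7 lower, against 5.28% of all genes (2.99% higher, 2.29% lower). In blue light 7 passed, 1 higher and 6 lower, against 7.5% of all genes (3.11% higher, 4.4% lower). For any difference among the 4 conditions 11 members passed, against 12.4% of all genes. Unadjusted p was under 0.05 in 18, 16, 15 and 22 members in these tests, against 22.1%, 16.6%, 18.4% and 22.5% of all genes. The other 2185 genes, which like the members have a mean count of at least 20, passed in 25.7%, 12.4%, 16.8% and 27.4% of cases, above the members' 8%, 7%, 7% and 11%. These differences in share were not tested. Members were chosen for their spread within groups, which is the error term of these tests and of the time test below. A lower share of calls than in the other 2185 genes is therefore built in by the choice and is no result about light or time.

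The median log2 fold change of the members was -0.17, 0.08 and -0.07 in red, green and blue light against DD, beside 0.01, 0.02 and 0.00 over all genes. The standard error (SE) of a member's fold change had a median of 0.45, 0.44 and 0.46, against 0.21 over all genes in each. A difference between lights was thus measured with larger error in a member than in a typical gene, which follows from the choice by spread within groups. In NVE3331, for example, log2 fold changes were -0.32 ± 0.71, -0.19 ± 0.70 and -0.13 ± 0.70 (SE) in red, green and blue light, none of which passed.

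NVE23787 and NVE15026, both of the second set, were the 2 members that passed as lower in all 3 comparisons with DD. NVE23787 had lowest, median and highest levels of 0, 65.3 and 1956 CPM in red light, 4.8, 53.3 and 1584 CPM in green light, 0, 32.8 and 1126 CPM in blue light, and 14.5, 136.6 and 3981 CPM in DD. All conditions overlapped widely. Log2 fold changes were -2.11 ± 0.63, -2.25 ± 0.62 and -2.78 ± 0.65 (SE; edgeR adjusted p = 0.025, 0.029 and 0.0053) in red, green and blue light.

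The highest DD levels of NVE23787 lay mostly in replicate B. DD B had 957, 2316, 162, 3678, 3505 and 1261 CPM at ZT2 to ZT22, DD ZT6 A had 3981 CPM and DD ZT18 D had 1323 CPM, while the other DD animals had 14.5 to 578 CPM. Without replicate B of every group, the log2 fold changes became -0.77, -1.33 and -1.42 and none passed (edgeR adjusted p = 0.60, 0.41 and 0.35). The green light call was also lost without replicate A (adjusted p = 0.15) or C (0.16).

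NVE15026 had lowest, median and highest levels of 8.0, 35.1 and 145 CPM in red light, 3.6, 31.2 and 337 CPM in green light, 0, 18.5 and 232 CPM in blue light, and 9.3, 91.02 and 1023 CPM in DD. The log2 fold changes were -1.77 ± 0.43, -1.73 ± 0.43 and -2.36 ± 0.46 (SE; edgeR adjusted p = 0.0049, 0.014 and 0.00061). It had the smallest adjusted p of the members for any light difference (0.00022), followed by NVE23787 (0.0018). Without replicate B the red and green light values became -0.75 and -0.93 and did not pass (adjusted p = 0.46 and 0.45), and the test for any light difference did not either (0.17). The green light call was also lost without replicate A (0.12) or C (0.11). The blue light call held in each of the 16 alternative settings, with a highest adjusted p of 0.074.

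The other named members of the second set passed as lower than DD in green and blue light. NVE24607, the lipoprotein receptor-related gene, had medians of 421 CPM (26.2 to 1065) in green light and 283 CPM (17.9 to 1294) in blue light, against 590 CPM (14.5 to 4215) in DD, with log2 fold changes of -1.39 ± 0.38 and -1.62 ± 0.38 (SE; edgeR adjusted p = 0.026 and 0.0056). NVE2195, the galaxin precursor, had medians of 132.5 CPM (7.3 to 1324) in green light and 121.3 CPM (47.6 to 609) in blue light, against 385 CPM (39.7 to 4524) in DD, with log2 fold changes of -1.19 ± 0.39 and -1.66 ± 0.40 (adjusted p = 0.080 and 0.0076). Groups overlapped in both genes. Without replicate B the values were -0.74 and -1.01 for NVE24607 and -0.40 and -1.04 for NVE2195, none of which passed (adjusted p 0.26 to 0.76). In green light the call of NVE24607 was also lost without replicate C, and that of NVE2195 without A or C. The latter was lost in 4 of the 16 alternative settings in all. Red light went the same way, at -0.79 ± 0.38 for NVE24607 and -0.96 ± 0.40 for NVE2195. Neither passed (edgeR adjusted p = 0.20 and 0.12), and red light was not tested against green or blue light.

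NVE1253 passed against DD in blue light, where it was lower. Its lowest, median and highest levels were 10.04, 72.03 and 233 CPM in red light, 3.4, 34.8 and 437 CPM in green light, 0, 14.8 and 169 CPM in blue light, and 2.0, 93.2 and 244 CPM in DD. The log2 fold change in blue light was -2.18 ± 0.45 (SE; edgeR adjusted p = 0.0013), and it passed in every alternative setting, with a highest adjusted p of 0.051. As given above, letter within light took a large share of its residual sum of squares, and no setting used the letter as the unit in place of the animal. Whether the blue light difference exceeds those of red or green light was not tested.

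**Figure D5:**
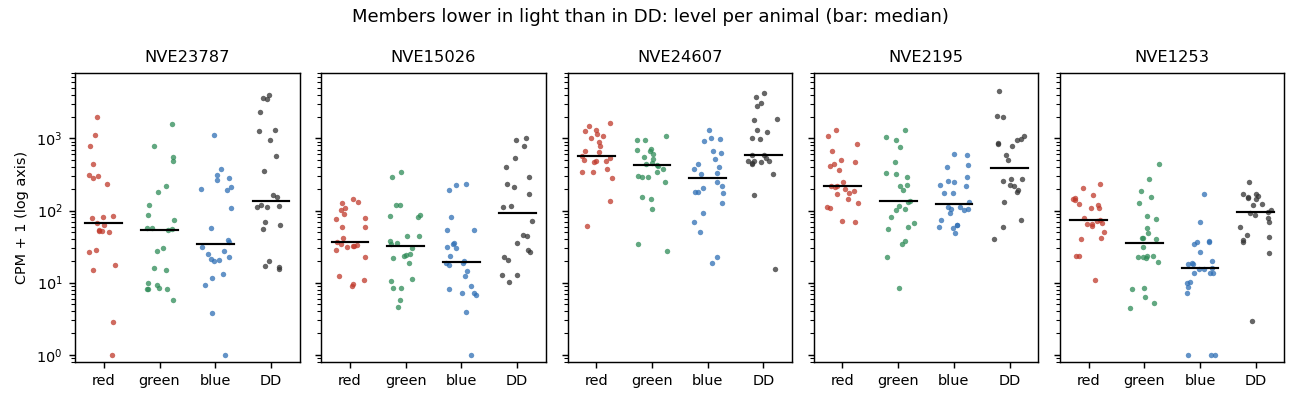
Level of 5 members in single animals, as CPM + 1 on a log axis, by light (red, green, blue, DD), with a bar at each median. NVE23787, NVE15026, NVE24607 and NVE2195 have their highest animals in DD, NVE1253 its lowest median in blue light (14.8 CPM), and the conditions overlap in each gene.

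Histone H2A (NVE18284) had lowest, median and highest levels of 0, 40.9 and 113.5 CPM in red light, 0, 39.9 and 191 CPM in green light, and 0, 82.9 and 231 CPM in DD. It was lower in red light (log2 fold change -1.18 ± 0.31, edgeR adjusted p = 0.0098) and in green light (-0.89 ± 0.30, 0.091). The red light call was lost without replicate A (adjusted p = 0.10). The green light call was lost in 7 of the 16 alternative settings, among them those leaving out any 1 of the 4 letters (0.15 to 0.26). NVE10468, the rootlectin gene, had medians of 40.3 CPM (5.0 to 204) in red light and 38.3 CPM (2.4 to 122.1) in green light, against 54.4 CPM (2.0 to 729) in DD. Its log2 fold changes were -1.20 and -1.64 ± 0.40 (edgeR adjusted p = 0.042 and 0.013), and without replicate D they were -0.42 and -0.61 and did not pass (0.74 and 0.58). Without replicate C they did not pass either (0.33 and 0.19), nor in red light without replicate A (0.10). Its red light call was lost in 4 of the 16 alternative settings in all. In blue light NVE18284 and NVE10468 went the same way, at -0.64 ± 0.30 and -1.02 ± 0.39. Neither passed there (edgeR adjusted p = 0.23 and 0.13).

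Sphingosine-1-phosphate phosphatase (NVE4987), which removes the phosphate from a signalling lipid, was higher in red light than in DD. It had lowest, median and highest levels of 0, 145 and 272 CPM in red light and 0, 9.4 and 171 CPM in DD, and over 100 CPM in 15 of 23 animals in red light and 5 of 22 in DD. The log2 fold change was 2.22 ± 0.62 (SE; edgeR adjusted p = 0.015), and without replicate A it was 1.96 (adjusted p = 0.10). In green and blue light it was 1.32 ± 0.66 and 0.88 ± 0.68, which did not pass (edgeR adjusted p = 0.29 and 0.54). Red light was not tested against these lights. NVE24510, unannotated and among the 10 most variable members (residual SD 2.55), was higher in blue light than in DD. It had 5.0, 1263 and 5853 CPM in blue light and 2.0, 73.3 and 4008 CPM in DD as lowest, median and highest level, a log2 fold change of 2.14 ± 0.71 (edgeR adjusted p = 0.066). That call was lost in 3 of the 16 alternative settings, among them without replicate A (2.17, adjusted p = 0.19) or D (1.83, 0.21). Its medians in red and green light, 749 and 1060 CPM, were also above that of DD. The log2 fold changes there were 1.63 ± 0.71 and 1.56 ± 0.70 and did not pass (edgeR adjusted p = 0.15 and 0.23). Whether blue light differs from red or green light was not tested.

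NVE20499 and NVE20703, the remaining 2 of the 10 most variable members, were called in no light comparison. NVE20499 (residual SD 2.60) had lowest, median and highest levels of 0, 1.96 and 1026 CPM in red light, 0, 3.25 and 1736 CPM in green light, 0, 13.3 and 2005 CPM in blue light, and 0, 9.74 and 1649 CPM in DD. NVE20703 (2.41) had medians of 351, 353, 384 and 309 CPM in red, green and blue light and DD, and its highest animal, DD ZT18 B, had 3555 CPM. In each condition animals ran from near absence to above 1000 CPM in both genes.

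For differences between any of the 6 hours, averaged over lights, 5 members passed, against 4.95% of all genes and 9.75% of the other 2185, and 22 had an unadjusted p under 0.05, against 17.2% of all genes. NVE448, the carbamoylphosphate synthase subunit, had median levels of 92.8, 78.4, 62.3, 27.3, 10.7 and 17.8 CPM at ZT2, 6, 10, 14, 18 and 22 over 14 to 16 animals each (edgeR adjusted p = 0.0014). Its median was highest at ZT2 and lowest at ZT18, where it lay close to the median floor of 8.70 CPM for 3 counts. These medians include DD animals, which had no light phase. Ranges overlapped at all hours, and NVE448 passed in every alternative setting (highest adjusted p 0.070).

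NVE7760, an uncharacterized protein, had medians of 92.4, 141.9, 100.7, 37.3, 154 and 224 CPM at the same hours (edgeR adjusted p = 0.011). It was lowest at ZT14, and it did not pass without replicate B (adjusted p = 0.20) or D (0.14). NVE4897 (edgeR adjusted p = 0.032), NVE20499 (0.066) and NVE25659 (0.087) also passed, and each was lost without at least 1 letter.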

How the data were processed

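Whole-animal RNA was made into tag-based 3' libraries. Per the labels and the study's methods, the authors trimmed and deduplicated the reads, mapped them with Bowtie2 to the Vienna transcriptome and counted those mapping to a single gene. The deposited table holds raw counts of 23927 gene models in 96 libraries, whose columns carry the sample names of the labels, with 0 columns of other samples. The genome build is not given in the sources used here.

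Libraries under 100000 counts were left out, which left 93, and the members were found in Python 3.11.15 (pandas 2.3.3, numpy 2.4.6). The deposited counts were tested in R 4.3.3 with edgeR 4.0.16 (TMM scaling, quasi-likelihood F test, mean count of at least 3, 24 group means, Benjamini-Hochberg adjustment, 10% false discovery). The study's own tool was DESeq2, tried here (1.42.0) beside other scalings, filters, letter blocks and left-out replicates. Scripts were tested on simulated data. Members were joined into groups by average linkage at 1 - r of 0.5. The p-values refer to differences between group means, set against the spread between single animals, which were taken as independent.

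The members, lists and tests were chosen with earlier results of these data known, and the paired sums, gaps and letter patterns were described after their values were seen. Named genes were the 10 members with the largest residual SD, 3 per group of at least 4, every named member, the 2 smallest p per test, the highest and lowest mean, and 3 genes on each side of the limit. Others named were picked after their values were seen. Gene names came from the study's supplementary annotation.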

Additional observations from a re-analysis of the deposited data

Results flagged for a closer look

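In groups of 4 animals, 18 sets of values had 1 animal far from the other 3. Chance would give about 1 in 20, or 5.25, but the values are levels of genes chosen for their spread within groups, so an excess is built in by the choice and is no finding. They cover 3 measures, and no explanation was tested.

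The mean level of the 9-gene set with NVE20622, on the log2(CPM + 5) scale, had 1 high animal in 7 groups. Groups with several high animals, such as green ZT6, are not flagged in this way. It was 7.74 in green ZT10 D (others 3.23 to 3.48), 9.32 in green ZT18 B (3.28 to 3.60) and 10.01 in green ZT22 B (2.89 to 3.63). In blue light it was 9.94 in blue ZT6 D (3.37 to 3.42), 7.43 in blue ZT14 A (2.95 to 3.45) and 7.91 in blue ZT22 D (3.08 to 3.40). In DD it was 5.32 in DD ZT2 A (3.20 to 3.48), a library of 138366 counts.

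The mean level of the 5-gene set with NVE1808 had 1 low animal in 8 groups. It was 5.73 in red ZT10 A (others 8.35 to 8.81) and 5.06 in red ZT14 A (7.93 to 8.39). It was 5.96 in green ZT2 D (9.14 to 9.33), 5.03 in green ZT10 D (8.73 to 9.03) and 5.12 in green ZT18 D (8.23 to 8.34). It was 6.52 in blue ZT10 D (8.21 to 8.34), a library of 104048 counts, 6.20 in blue ZT18 D (7.79 to 7.98) and 6.63 in DD ZT10 A (8.42 to 8.58). Each is an animal of the letter that was low for this set in its light.

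The number of members more than 2 log2 units from their group mean was 32 in blue ZT22 D (others 13 to 16), 16 in DD ZT2 D (21 to 22) and 17 in DD ZT14 D (19 each).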

How the results depend on the processing

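The choice of members depended most on the filter on counts: with a minimum mean count of 50, only 50 of the 100 were chosen again, since the other 50 lie under that minimum by construction. With a minimum of 10 it was 68, with the median absolute deviation 75 and with the other settings 91 to 99, that last range covering each left-out replicate, and 25 members were chosen under every setting. The median correlation between members stayed between -0.0069 and 0.0034.

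With a minimum mean count of 10 the members called were 13 in red light and 11 in green light. Without a filter on counts the genes called were 778 in red light, 241 in green light, 471 in blue light and 757 for any light, against 1232, 507, 720 and 1194. With DESeq2, 728 genes were called for time, against 475. Leaving out 1 replicate or library, members called ranged from 3 to 10 in red light, 1 to 9 in green light, 5 to 8 in blue light, 6 to 13 for any light and 2 to 9 for time, and genes called from 481 to 1323, 120 to 779, 291 to 849, 562 to 1319 and 158 to 478. The cause of these changes was not tested.

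The labels give replicate letters no shared source, and not every pair of animals of 1 letter passed r = 0.1, so letters were not taken to pair animals between lights: residuals of animals of the same hour and letter had median r of 0.075 (red light and DD), -0.0096 (green light and DD) and -0.010 (blue light and DD), and r passed 0.1 in 7 of 21, 3 of 22 and 4 of 22 pairs. Among 4 letters, an animal was closest to its own in 11 of 21, 5 of 22 and 4 of 22 cases. With no pairing this would be about 1 in 4, so the count for red light and DD was higher, which was not tested. Within a light, animals of 1 letter at different hours had median r of 0.075 (red), 0.076 (green), 0.00043 (blue) and 0.021 (DD), against -0.019, -0.034, -0.015 and -0.0068 for different letters. With letter as a replicate block, 8, 6, 7, 10 and 4 members and 1260, 503, 695, 1191 and 452 genes were called in red light, green light, blue light, any light and time. With the letter as a replicate block within each light, an alternative chosen after seeing the data, it was 9, 6, 7, 15 and 6 members and 1237, 536, 722, 1207 and 421 genes. Of 608 values for 38 single-member calls over 16 settings, 509 kept the call, 99 lost it and 0 changed sign. The calls kept in all settings were those of NVE1253 (blue light, any light), NVE15026 (blue light) and NVE448 (time). All settings took the animal as the unit, and none took the letter within a light, so a dependence between animals of 1 letter is not covered. Depth limits what can be said below about 8.70 CPM, the median floor of 3 counts.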
